A study of Homo sapiens with 16 samples.

Results

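The genes of TFIID and the other general transcription factors were followed through YEATS2 knockdown (KD) in H1299, an established human non-small cell lung cancer line. They were taken by name from the count table as TBP, every TAF symbol made of TAF, a number and at most 1 letter from A to D, and every symbol beginning with GTF2 or GTF3. This gave 45 genes of 12676 listed, and all 45 were tested. RNA-seq had been made from 2 control libraries (shCtrl) and 2 KD libraries (shYEATS2). Both groups were H1299 cells infected with lentivirus in 8 µg/ml polybrene and selected with 2 µg/ml puromycin from 48 h on, for 4 to 7 days. The shCtrl cells carried a non-targeting pLKO shRNA, called shNT in the paper, and the shYEATS2 cells carried a pLKO shRNA against YEATS2. The labels do not name that shRNA. The paper describes duplicate RNA-seq with an shRNA that depleted YEATS2 efficiently, and another RNA-seq with an shRNA of partial effect. With these libraries, effects of an shRNA on other genes cannot be told apart from those of YEATS2 loss. The labels describe the puromycin selection and name no clones.

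RNA polymerase II cannot find a promoter by itself. TFIID, made of the TATA-binding protein TBP and the TBP-associated factors (TAFs), binds the core promoter first, TFIIA and TFIIB stabilise it, TFIIF brings the polymerase, TFIIE recruits TFIIH, and TFIIH opens the DNA and phosphorylates the polymerase. RNA polymerase I uses another TBP complex, SL1, and RNA polymerase III uses TFIIIA at the 5S genes and TFIIIC at 5S and tRNA genes. YEATS2 is a subunit of the ATAC histone acetyltransferase complex and binds acetylated histone H3 through its YEATS domain. The comparison asks whether the mRNAs of the initiation machinery itself differ when YEATS2 is depleted.

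The libraries held 34718921 to 39417787 counted reads. Counts were scaled for library size by TMM, and values below are TMM-scaled read counts unless a level per length is named. YEATS2 (chromosome 3, 183415585 to 183530412, GRCh37) had 4483 and 4104 scaled counts under shCtrl but 665 and 673 under shYEATS2. The difference was −2.68 on the log2 scale (SE 0.10, adjusted p = 0.000583, edgeR's quasi-likelihood test). The epithelial and mesenchymal filament genes KRT8, KRT18 and VIM were counted in every library, while PTPRC, PECAM1, ALB and CD3E, markers of blood, endothelial, liver and T cells, had no row in a table limited to genes with at least 101 reads in some library. In bulk RNA, a smaller share of cells expressing a gene and less of its RNA per expressing cell cannot be told apart.

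At an adjusted p (false discovery rate, FDR) under 0.01, 6 of the 45 fell and 1 rose, which is 15.6% of them. Of all 12676 genes 25.3% were called, 12.5% lower and 12.9% higher. The genes that fell were TAF6 and TAF9B of TFIID, GTF2A2 of TFIIA, GTF2H5 and GTF2H2C of TFIIH, and GTF3A, which encodes TFIIIA. GTF2H1 of TFIIH rose. The other 38 did not pass. At an unadjusted p under 0.05, 20 were lower and 7 higher. Of all genes 56.5% passed, 3528 lower and 3636 higher, which is the background for the counts at that threshold given below. No member differed by 1 or more on the log2 scale, whereas 1422 of all genes did.

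These calls rest on few libraries. Without shCtrl replicate 1 the test called 0 of the 45 (at an unadjusted p under 0.05, 10 were lower and 4 higher, with 42.2% of all genes passing), and without shCtrl replicate 2 it called GTF2H2C alone. Without shYEATS2 replicate 2 it called TAF6, TAF9B and GTF2H1, and without shYEATS2 replicate 1 it called 9 lower and 1 higher, including all 7. Over all genes these fits called 850 lower and 775 higher without shCtrl replicate 1, 919 and 882 without shCtrl replicate 2, 1066 and 1002 without shYEATS2 replicate 2, and 2032 and 1991 without shYEATS2 replicate 1. With all 4 libraries, DESeq2 called 9 members lower and 1 higher (34.3% of all genes were called), limma-trend 6 and 1 (25.8%), and edgeR's exactTest 10 and 3 (40.2%), and each of these included the 7.

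The median log2 fold change of the 45 was −0.22, beside −0.0019 over all genes, with a range from −0.85 (GTF2H2C) to 0.76 (GTF2IRD2B). In 33 genes the estimate was below 0 and in 12 above. Scaling by total counts instead of TMM, which moved the median of all genes by 0.12, gave a median of −0.10 for the members and 27 below 0. At an unadjusted p under 0.05 that scaling had 11 members lower and 8 higher, for which the share of all genes was not counted. The median size of the change, without its sign, was 0.31 for the members and 0.37 for all genes. In 37 of the 45 (82.2%) both shYEATS2 libraries lay on 1 side of both shCtrl libraries, which held for 79.6% of all genes, so this share was near the background.

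**Figure D1:**
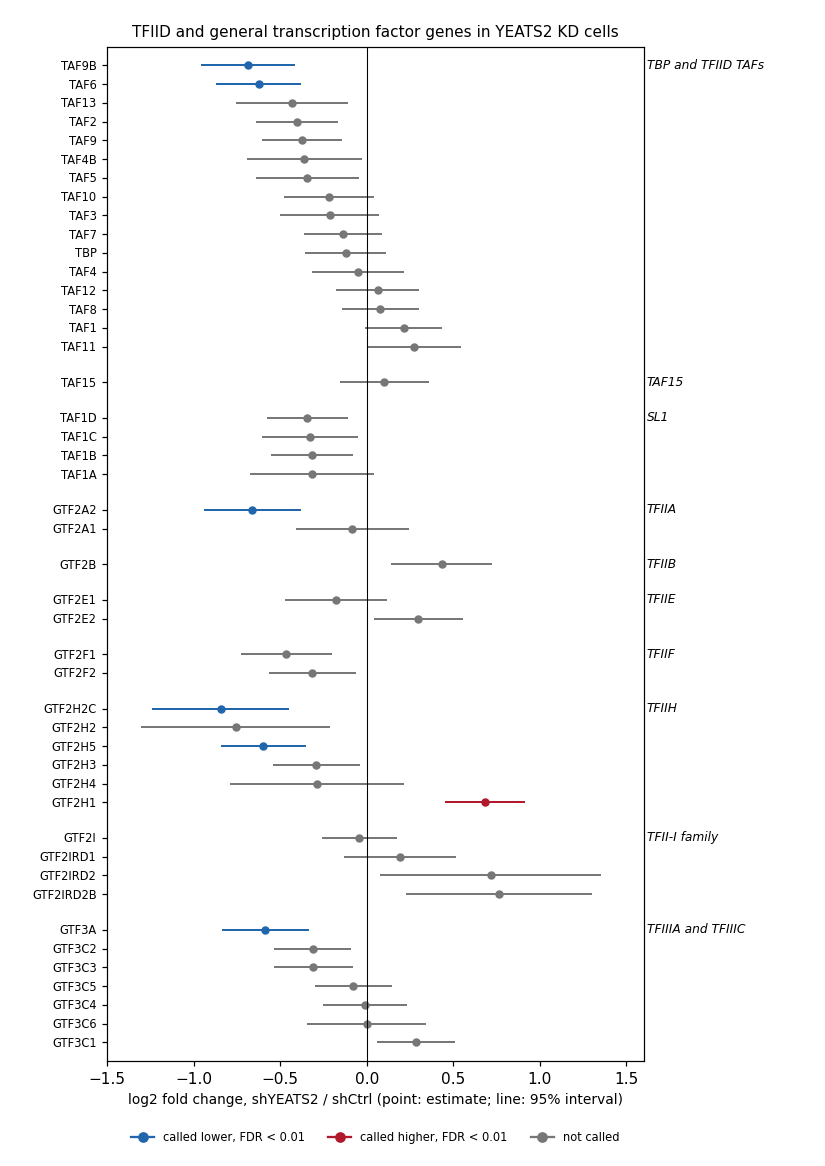
Log2 fold change (x axis, shYEATS2 over shCtrl, 2 libraries each) of all 45 genes by complex, as the estimate (point) and its 95% interval (line), coloured by the call at FDR under 0.01. The 7 called genes lie in TFIID, TFIIA, TFIIH and the TFIIIA and TFIIIC group, and no point reaches 1 on either side.

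**Figure D2:**
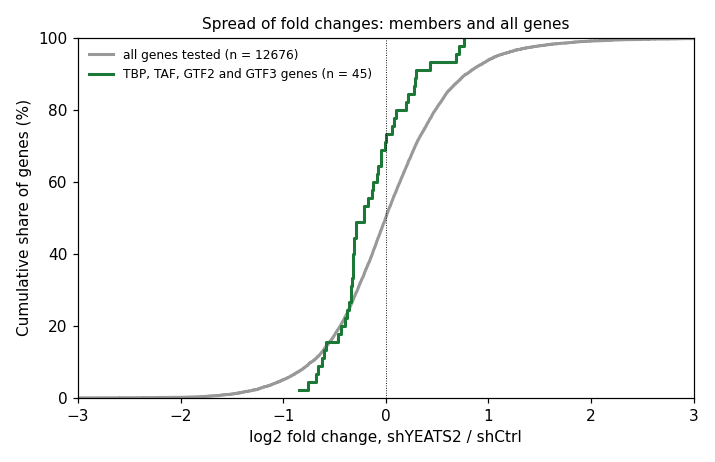
Cumulative share of genes (y axis, %) at or below each log2 fold change (x axis, shown from −3 to 3) for the 45 members and all 12676 genes. The members' curve crosses 50% left of the grey one, at a median of −0.22, and it ends at 0.76, where the grey curve continues.

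In TFIID the falls were in 2 histone-fold subunits. TAF6 (ENSG00000106290, chromosome 7, 99704499 to 99717464, minus strand), which pairs with TAF9 inside TFIID, had 4465 and 4475 scaled counts in shCtrl and 3075 and 2722 in shYEATS2. Both KD libraries lay below both controls, and the KD mean was 0.648 times the control mean (log2 fold change −0.62, SE 0.10, adjusted p = 0.0039). TAF9B (ENSG00000187325, chromosome X, 77385245 to 77395147, minus strand), a paralog of TAF9 that is also found in the SAGA coactivator, had 3864 and 3941 in shCtrl and 2627 and 2228 in shYEATS2. Its groups did not overlap, and the log2 fold change was −0.69 (SE 0.11, adjusted p = 0.0039). TAF6 shares 18.5% of the 50-base windows of its annotated transcripts with other genes, most with its neighbour AP4M1, whose own log2 fold change was −0.51 (adjusted p = 0.013). The study ran HTSeq at its default parameters, which read strand, whereas the TruSeq mRNA v2 kit of the labels does not mark it, so the counts of such overlapping genes are uncertain.

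TBP itself did not pass. TBP (ENSG00000112592, chromosome 6, 170863390 to 170881958, plus strand) had 2390 and 2188 scaled counts in shCtrl and 2081 and 2127 in shYEATS2. Both KD libraries were below both controls, but the controls lay farther from each other than the nearest KD and control libraries did. The log2 fold change was −0.12 with a 95% interval from −0.35 to 0.11 (adjusted p = 0.32). A fall of the size seen for TAF6 lies outside that interval.

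Of the other TFIID genes none was called by edgeR's quasi-likelihood test. The paralogs TAF9 and TAF9B had log2 fold changes of −0.37 (SE 0.10, adjusted p = 0.018) and −0.69. The values for TAF9, which were 7727 and 8497 in shCtrl and 6197 and 6321 in shYEATS2, are uncertain, since the identifier of this row is named AK6 in the annotation and AK6 and TAF9 overlap on chromosome 5. The large scaffold subunits TAF4 and TAF4B had −0.05 (95% interval −0.31 to 0.21) and −0.36 (95% interval −0.69 to −0.03, adjusted p = 0.066). TAF4 had 1254 and 1380 scaled counts in shCtrl and 1204 and 1339 in shYEATS2, overlapping groups, whereas TAF4B had 1426 and 1125 in shCtrl and 1026 and 960 in shYEATS2. The difference within each paralog pair was not tested. TAF2, which contacts initiator DNA, had −0.40 (adjusted p = 0.015) and TAF13, the histone-fold partner of TAF11, −0.43 (adjusted p = 0.035), while TAF11 had 0.27 (adjusted p = 0.080). TAF1, the largest subunit, with bromodomains, had 0.21 and TAF5, a WD40 scaffold subunit, −0.34. TAF3, whose PHD finger reads methylated histone H3, and TAF10, a histone-fold subunit shared with SAGA, both had −0.22. TAF7, a regulator of TAF1, TAF8 and TAF12 lay between −0.14 and 0.08. For the 16 genes of TBP and the TFIID TAFs together, 2 were called lower and 0 higher, and the median log2 fold change was −0.22. At an unadjusted p under 0.05, 7 were lower and 1 higher, beside 3528 lower and 3636 higher of all 12676 genes. DESeq2 and exactTest each called 4. TAF15, an RNA-binding protein of the FET family that associates with a part of TFIID, had 0.10 with overlapping groups.

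The 4 TAFs of SL1, the RNA polymerase I factor, had nearly equal estimates. TAF1A, TAF1B, TAF1C and TAF1D had log2 fold changes of −0.31, −0.32, −0.33 and −0.34. In each of them both KD libraries were below both controls, and in 79.6% of all genes the groups likewise did not overlap. None of the 4 was called by the quasi-likelihood test, with adjusted p from 0.024 for TAF1D to 0.12 for TAF1A. At an unadjusted p under 0.05, 3 of the 4 were lower, beside 3528 lower of all 12676 genes and 56.5% in either direction. DESeq2 and exactTest called 0.

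In TFIIA 1 of the 2 genes fell. GTF2A2 (ENSG00000140307, chromosome 15, 59930261 to 59949740, minus strand), the small subunit, had 2780 and 2729 scaled counts in shCtrl and 1906 and 1579 in shYEATS2. The groups did not overlap, and the log2 fold change was −0.66 (SE 0.12, adjusted p = 0.0050). GTF2A1, which encodes the precursor of the large subunits, had 4581 and 4021 in shCtrl and 4521 and 3602 in shYEATS2, overlapping groups with a log2 fold change of −0.08 (95% interval −0.40 to 0.24). GTF2B, the single subunit of TFIIB, had 1121 and 986 in shCtrl and 1328 and 1519 in shYEATS2. Its log2 fold change of 0.43 did not pass (adjusted p = 0.024), although both KD libraries were above both controls and it was called by exactTest.

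In TFIIE the estimates were −0.18 for GTF2E1 and 0.30 for GTF2E2, and 0 of the 2 were called by the quasi-likelihood test, by DESeq2 or by exactTest (at an unadjusted p under 0.05, GTF2E2 was higher). In TFIIF they were −0.46 for GTF2F1 (SE 0.11, adjusted p = 0.013) and −0.32 for GTF2F2 (adjusted p = 0.042). GTF2F1, the large TFIIF subunit, had 5901 and 5407 scaled counts in shCtrl and 4375 and 3818 in shYEATS2, non-overlapping, and both TFIIF genes were lower at an unadjusted p under 0.05. The quasi-likelihood test called neither, whereas DESeq2 and exactTest called GTF2F1.

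TFIIH held the called genes of both directions. GTF2H1 (ENSG00000110768, chromosome 11, 18343842 to 18388592, plus strand), a core subunit that contacts TFIIE and the repair factor XPC, had 2058 and 2047 scaled counts in shCtrl and 3187 and 3413 in shYEATS2. The KD mean was 1.61 times the control mean (log2 fold change 0.68, SE 0.09, adjusted p = 0.0024). GTF2H5 (ENSG00000272047, chromosome 6, 158589382 to 158620376, plus strand), the smallest TFIIH subunit, which stabilises the complex and is mutated in a form of trichothiodystrophy, had 1936 and 1966 in shCtrl and 1365 and 1214 in shYEATS2. The groups did not overlap and the log2 fold change was −0.60 (SE 0.10, adjusted p = 0.0045).

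GTF2H2C (ENSG00000183474, chromosome 5, 68856018 to 68891048, plus strand), a duplicate of the core subunit gene GTF2H2, had 1476 and 1318 scaled counts in shCtrl and 899 and 658 in shYEATS2. Its log2 fold change of −0.85 was the lowest of the 45 (SE 0.16, adjusted p = 0.0069). GTF2H2 had 240 and 234 in shCtrl and 169 and 112 in shYEATS2, with a log2 fold change of −0.76 that did not pass (SE 0.23, adjusted p = 0.032). The annotated transcripts of GTF2H2 and GTF2H2C share 66.1% and 66.8% of their 50-base windows with other genes, each other among them, so the split of reads between the copies is uncertain. Summed over both, there were 1716 and 1552 in shCtrl and 1068 and 770 in shYEATS2, a log2 ratio of means of −0.83. Both also share windows with a further gene, ENSG00000291220, and the sum does not settle reads shared with that gene. GTF2H3 and GTF2H4, core subunits, both had −0.29, and 73.3% of the windows of GTF2H4 are shared.

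The 5 TFIIH subunits whose names lie outside the rule are the helicases ERCC2 and ERCC3 and the kinase module CDK7, CCNH and MNAT1. Their log2 fold changes ran from −0.22 for CCNH to 0.24 for ERCC2. The quasi-likelihood test called 0 of the 5, as did DESeq2 and exactTest, and 1 (CCNH) was lower at an unadjusted p under 0.05. ERCC2, the XPD helicase, had 5937 and 5726 scaled counts in shCtrl and 8070 and 5675 in shYEATS2, where the KD replicates differed by more than the groups.

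**Figure D3:**
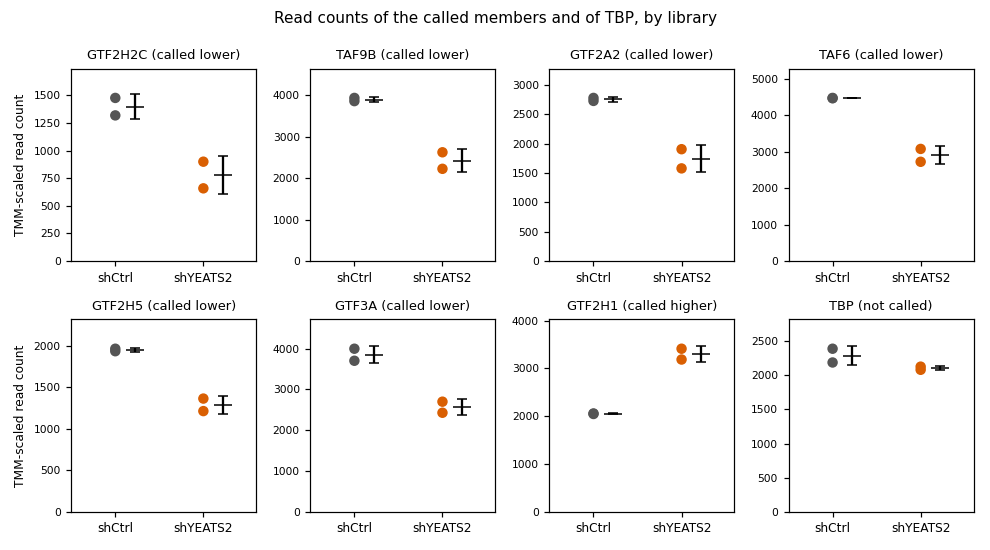
TMM-scaled read counts (y axes, from 0) of the 7 called genes and of TBP in the 2 shCtrl (grey) and 2 shYEATS2 (orange) libraries, with mean and SD beside the points. In the 6 genes called lower both orange points lie under both grey ones, GTF2H1 shows the opposite order, and TBP stays between 2081 and 2390.

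Of the RNA polymerase III factors GTF3A fell. GTF3A (ENSG00000122034, chromosome 13, 27998756 to 28009960, plus strand), the zinc-finger protein that binds 5S genes and 5S RNA, had 3704 and 3999 scaled counts in shCtrl and 2700.1 and 2429 in shYEATS2. The groups did not overlap, and the log2 fold change was −0.59 (SE 0.10, adjusted p = 0.0051). With total counts the call was lost, at an adjusted p of 0.0102. The 6 TFIIIC genes had from −0.31 for GTF3C2 (adjusted p = 0.028) and GTF3C3 (adjusted p = 0.032) to 0.29 for GTF3C1 (adjusted p = 0.040). GTF3C1, the subunit that binds the B box of tRNA genes, had 6610 and 6748 in shCtrl and 7856 and 8427 in shYEATS2. GTF3C2, another subunit of the B-box binding part, had 4021 and 3862 in shCtrl and 3144 and 3202 in shYEATS2, so the estimates of both had opposite signs and neither passed. GTF3C4, GTF3C5 and GTF3C6 were at −0.01, −0.08 and 0.00.

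The TFII-I genes carry the GTF2I name but are DNA-binding regulators and not subunits of the basal machinery. GTF2I had 10241 and 10012 scaled counts in shCtrl and 9977 and 9687 in shYEATS2, a log2 fold change of −0.04 (95% interval −0.26 to 0.17). GTF2IRD1, its paralog, had 820 and 999 in shCtrl and 979 and 1099 in shYEATS2, overlapping groups with 0.19 (95% interval −0.13 to 0.51). GTF2IRD2 had 49.5 and 66.2 in shCtrl and 85.5 and 104 in shYEATS2, with 0.72 (SE 0.27, adjusted p = 0.062), and its copy GTF2IRD2B had 79.6 and 92.2 in shCtrl and 131 and 161 in shYEATS2, with 0.76 (SE 0.22, adjusted p = 0.029). Both were above the controls in both KD libraries and neither passed, at the lowest counts of the 45. The copies share 66.6% and 74.6% of their windows with other genes, and their sum had a log2 ratio of 0.74. The sum does not settle reads that both share with a further gene, ENSG00000290839. GTF2I shares 60.9%, most with the pseudogene GTF2IP1. DESeq2 called 0 of the 4 and exactTest 1, GTF2IRD2B.

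Reads shared between copies touch few of the calls. Of the 32 members with under 10% shared windows, 4 were called lower and 1 higher, and their median log2 fold change was −0.25.

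Levels were compared between genes as RPKM, the scaled reads per kilobase of merged exons and per library size. In shCtrl they ran from 0.220 for GTF2IRD2 to 104 for the TAF9 row, followed by GTF3C6 at 86.1, GTF2F1 at 54.1 and TAF7 at 50.2. TBP stood at 27.2. GTF2H1 moved from 8.14 to 13.1, and TAF9B from 39.3 to 24.4. The called genes included none of the 4 highest levels, but TAF9B ranked 5 and GTF3A, at 36.2, ranked 6. Levels of the called genes in shCtrl spanned 4.82 for GTF2H2C to 39.3. Merged exons overstate the length of genes with many annotated transcripts, which lowers their level.

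**Figure D4:**
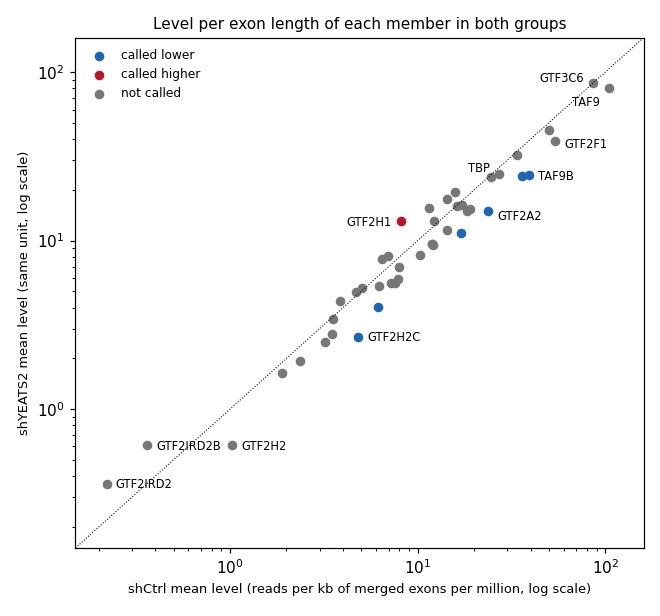
Mean level of each of the 45 genes in shYEATS2 (y axis) against shCtrl (x axis), both in RPKM over merged exons on log scales, with a dotted line of equality. GTF2H1 lies above the line at 8.14 and 13.1, and the 6 genes called lower lie under it.

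The promoters of the 7 called genes are shown as a description of their sequence. RefSeq promoter windows (GRCh38.p14, 250 bases before to 50 after a gene's first listed start) were matched for 38 of the 45 genes and searched on both strands for 7 short words. The 100 bases before the start are printed 5′ to 3′ on the strand of the gene, with each matched word in capitals, which are CCGGAAG (the core that ETS factors bind), GGGCGG (SP1), CACGTG (E-box), GCATGCG (NRF1) and GATGGCG (YY1), or their reverse complements. The positions are chr7:100119359-100119458 (minus strand) for TAF6, chrX:78139651-78139750 (minus strand) for TAF9B, chr15:59657516-59657615 (minus strand) for GTF2A2, chr5:69560091-69560190 (plus strand) for GTF2H2C, chr6:158168250-158168349 (plus strand) for GTF2H5, chr11:18322467-18322566 (plus strand) for GTF2H1 and chr13:27424519-27424618 (plus strand) for GTF3A.
TAF6: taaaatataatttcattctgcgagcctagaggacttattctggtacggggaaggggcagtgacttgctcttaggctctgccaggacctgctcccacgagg
TAF9B: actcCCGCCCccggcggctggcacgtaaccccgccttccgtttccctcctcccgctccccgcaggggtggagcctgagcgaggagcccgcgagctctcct
GTF2A2: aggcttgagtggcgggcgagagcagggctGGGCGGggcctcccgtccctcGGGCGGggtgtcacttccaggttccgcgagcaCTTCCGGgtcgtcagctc
GTF2H2C: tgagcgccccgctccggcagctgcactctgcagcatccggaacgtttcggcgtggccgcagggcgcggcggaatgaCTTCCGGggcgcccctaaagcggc
GTF2H5: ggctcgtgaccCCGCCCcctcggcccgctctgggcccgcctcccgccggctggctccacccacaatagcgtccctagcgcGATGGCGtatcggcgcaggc
GTF2H1: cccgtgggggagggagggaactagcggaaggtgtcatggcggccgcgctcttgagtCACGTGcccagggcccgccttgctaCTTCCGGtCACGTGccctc
GTF3A: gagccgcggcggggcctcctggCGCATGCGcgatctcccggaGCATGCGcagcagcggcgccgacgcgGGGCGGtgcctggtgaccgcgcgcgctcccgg
No word was matched in the TAF6 stretch, but its whole window holds GGGCGG and GATGGCG. The whole window of GTF3A also holds CCGGAAG, and the counts below are over whole windows. In GTF3A the first NRF1 match overlaps its own reverse complement.

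The ETS word CCGGAAG was in 21 of the 38 windows (55.3%) and in 20.2% of the 9085 windows of genes in the table. Among the called genes it was in 3 of the 6 that fell and in that of GTF2H1, beside 17 of the 31 members not called. The E-box CACGTG was in 8 of the 38 (21.1%, against 956 of the 9085). These were 0 of the 6 lower genes, GTF2H1 and 7 of the 31 not called. The YY1 word GATGGCG was in 8 (21.1%, against 8.08%), 2 of them among the lower genes and 6 among the 31 not called. GGGCGG was in 57.9% against 71.7%, in 5 of the 6 lower genes and in 17 of the 31 not called. The CCAAT word GCCAAT was in 5 of the 38 and 1816 of the 9085, GCATGCG in 5.26% against 6.95% and the TATA word TATAAA in 7.89% against 4.90%. These are counts of letters in a window and no binding was measured.

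Other genes of the initiation machinery outside the naming rule were looked at in lists of 23 genes, called the partner lists below. These lists include the 5 TFIIH subunits described above. Of the 23 genes, 21 were in the table and TAF1L and TAF7L were not. The quasi-likelihood test called 3 of the 21 lower and 1 higher (19.0%, beside 25.3% of all genes), and their median log2 fold change was −0.12. DRAP1 and DR1, the subunits of the NC2 complex that binds TBP on DNA and blocks TFIIA and TFIIB, both fell. DRAP1 had 18141 and 17437 scaled counts in shCtrl and 11707 and 9701 in shYEATS2, a log2 fold change of −0.73 (SE 0.12, adjusted p = 0.0037). DR1, which is also a subunit of ATAC, had 5323 and 5106 in shCtrl and 3746 and 3391 in shYEATS2, with −0.55 (SE 0.10, adjusted p = 0.0053). With total counts the call of DR1 was lost (−0.43, adjusted p = 0.0104). BTAF1, the ATPase that removes TBP from DNA, had 0.03 (adjusted p = 0.83).

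Of the TFIIIB and SNAPc genes, which recruit RNA polymerase III and serve snRNA promoters, BRF2 rose. BRF2, the TFIIB-like factor used at U6 promoters, had 391 and 373 scaled counts in shCtrl and 687 and 941 in shYEATS2, a log2 fold change of 1.09 (SE 0.17, adjusted p = 0.0035), and it was also called with each library left out. BRF1, its counterpart at tRNA genes, had −0.22 and BDP1 −0.12, and neither passed. SNAPC1 had −0.67 (adjusted p = 0.011), just outside the threshold. UBTF, the RNA polymerase I activator UBF, fell from 7915 and 7384 in shCtrl to 5339 and 4556 in shYEATS2 (log2 fold change −0.63, SE 0.11, adjusted p = 0.0051), while RRN3, the polymerase I initiation factor, had 0.37 (adjusted p = 0.018). Among the paralogs, TBPL1, a TBP-like factor, had 0.45 (adjusted p = 0.014), TAF5L and TAF6L of SAGA had −0.42 and 0.30, and none passed. Without shCtrl replicate 1 the test called 0 of the 21 lower, without shCtrl replicate 2 it called DRAP1 and SNAPC1, and without shYEATS2 replicate 2 it called DRAP1 alone. DESeq2 called 4 lower and 2 higher and exactTest 5 and 3.

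The spread between replicates was near that of all genes. The log2 ratio between the shCtrl replicates had a median size of 0.11 over the 45, as over all genes, and reached 0.42, and that between the shYEATS2 replicates had a median of 0.14, beside 0.15 over all genes, and reached 0.59, in GTF2H2. The median SE of a member's log2 fold change was 0.11. With 46 to 10957 raw reads per member and library, counting error was largest for the GTF2IRD2 copies.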

How the data were processed

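RNA-seq of H1299 cells, with 2 shCtrl and 2 shYEATS2 libraries, was analysed; the ChIP samples of the series were not used. Per the study's methods, the authors aligned to hg19 using the RNA-Seq unified mapper, although the submitters' processing notes list Bowtie2 2.1.0 and TopHat2 2.0.10 with no role. The deposited counts are unscaled reads per gene from HTSeq (0.6.1p1 in those notes). The deposited log2 fold change, p-value and FDR columns are the authors' own edgeR comparison and were not used. Groups came from the labels. The study calls the replicates independent biological ones, without naming separate cultures.

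A minimum of 10 reads in 2 libraries kept all 12676 genes. The test was quasi-likelihood in edgeR 4.0.16 under R 4.3.3, with TMM factors, no replicate block and Benjamini-Hochberg adjustment over all genes, at an FDR under 0.01. The SE was the log2 fold change over the square root of F. Alternatives used DESeq2 1.42.0, limma-trend (limma 3.58.1, prior count of 2), exactTest, other scalings and filters, a replicate block, an FDR under 0.05, a 1.5-fold minimum and each library left out. Replicates differed beyond sampling noise (chi-square per gene of 17.9 in shCtrl and 38.0 in shYEATS2). Gene positions came from GENCODE v44lift37 (12465 of 12676 identifiers matched, 2 members by symbol) and transcripts of the same release gave the 50-base windows, searched on both strands.

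Named one by one are YEATS2, called members, TBP, paralog pairs and called genes of the partner lists, and other members where their complex is described. Some results on marker genes are not reported here. Members and lists were chosen with earlier results of these data known.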

Additional observations from a re-analysis of the deposited data

How the results depend on the processing

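YEATS2 stayed between −2.74 and −2.56 in every fit. With edgeR's exactTest the members called rose to 10 lower and 3 higher, all genes to 2497 and 2596, the partner lists to 5 and 3 and the complexes with a called member from 4 to 7. With an FDR under 0.05 these were 16 and 4, 3011 and 3093, 5 and 3, and 8. DESeq2 and upper-quartile scaling each called 2 partner genes higher. Total counts gave 2 members and 3 partner genes higher, a member median of −0.10, and 1166 genes lower against 2363 higher over all genes, beside 1581 and 1630 with TMM, and it turned TAF4 to 0.069 and GTF2I to 0.077. With the replicate number as a block, 12 members were lower and 2 higher, all genes 2715 and 2742, partner genes 5 and 3, and 7 complexes had a called member. Deviations of same-numbered libraries correlated at 0.40 over all genes. The labels name no shared batch, and whether same-numbered libraries were processed together was not tested.

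Leaving out 1 library in turn gave 0 to 9 members lower and 0 to 1 higher, 850 to 2032 genes lower and 775 to 1991 higher, 0 to 3 partner genes lower, 0 to 5 complexes with a called member and a member median from −0.29 to −0.18. The lone library left in a group is then assumed to vary like the others. TAF4 ranged from −0.129 to 0.0238, positive without shCtrl replicate 2 (0.0216) and without shYEATS2 replicate 1 (0.0238). The cause was not tested in any of these. With all libraries, 196 values of the 19 named genes kept direction and call, 7 gained and 3 lost the call. With 1 library left out, 49 kept both, 24 lost the call and 1 gained it. Of the 196 values, 19 came from the fit with no filter, which repeats the main fit because the filter kept all genes. The FDR under 0.05 and the 1.5-fold minimum also reuse the main fit. There no direction could change, and at an FDR under 0.05 no call could be lost. With 2 libraries a group, genes of few reads such as GTF2IRD2 have wide intervals, and a change that did not pass may still exist.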
